A study of Mus musculus with 8 samples.

Results

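The genes described are 9 receptors by which macrophages take up modified lipoproteins, debris, dying cells and microbes: Cd36, Msr1, Marco, Stab1, Mrc1, Lrp1, Scarb1, Mertk and Axl. They were chosen by symbol from 22753 genes listed, with earlier results of these data known, and all 9 were found. Transcription was followed by GRO-seq, a nuclear run-on assay read by sequencing, in which isolated nuclei are allowed to extend the transcripts that their polymerases were making at harvest. The extended RNA carries a bromouridine tag and is captured with an antibody, so that the signal follows transcription at the time of harvest and not the store of messenger RNA or protein. The cells were macrophages differentiated from the bone marrow of 8-week-old male C57BL/6 mice, a wild-type inbred strain, and all groups were kept in a macrophage serum-free medium. One group was untreated (0 min), and the others received lipopolysaccharide (LPS), the gram-negative cell wall component sensed through Tlr4, at 100 ng/ml for 20, 60 or 180 min. Each of the 4 groups had 2 biological replicates, which makes 8 libraries.

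Scavenger receptors bind a broad range of polyanionic and lipid ligands. The class A members Msr1 and Marco are trimeric receptors with a collagen-like stalk, and the class B members Cd36 and Scarb1 are receptors that cross the membrane at both ends and bind lipoproteins and lipids. Stab1 is a large multidomain receptor that clears acetylated low density lipoprotein and the matrix protein SPARC, Mrc1 is the mannose receptor, and Lrp1 is a giant endocytic receptor with many ligands. Mertk and Axl are tyrosine kinases of the TAM family, which bind phosphatidylserine on dying cells through the bridging ligands Gas6 and protein S and which restrain Toll-like receptor signalling.

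Levels are given as FPKM, reads per kilobase of gene corrected for library size. The value of replicate 1 is always given before that of replicate 2. A change is the later minus the earlier log2(FPKM + 0.1), ± SE, estimated by limma over the 8 libraries. Such changes understate the difference in genes at low levels. A gene is called when its Benjamini-Hochberg adjusted p is under 0.05. Of the 22753 genes, 8343 passed a filter of 0.5 FPKM on the mean over the 8 libraries and were tested, among them 8 of the 9 receptors. Marco, with a mean of 0.31 FPKM, was not. The replicate numbers paired the libraries, so the adjusted p of a paired fit, which has the replicate number as a block, stands beside each result whose call it changes.

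The depth recovered from the values was 44.4 to 61.2 M reads in the libraries of replicate 1 and 7.96 to 11.1 M reads in those of replicate 2, so replicate 2 carried the larger counting error. The LPS response was present: Tnf, Nfkbia, Il1b and Cxcl10 were called higher at 60 and at 180 min. Tnf went from 30.8 and 52.2 FPKM at 0 min to 618 and 1025 FPKM at 60 min. Of 12 macrophage markers, 11 were listed in the file and all of these were tested, and their summed level was 115 to 279 FPKM in every library. At 180 min against 0 min these markers moved apart: Csf1r (-2.52), Cd68 (-2.09), Tyrobp (-2.08) and Laptm5 (-3.96) were called lower and Cd14 (1.299) higher, 4 lower and 1 higher of 11 (6 and 4 with the replicate block). At 60 min 3 of these markers were called lower and 1 higher (6 and 1 with the block). The shares of all genes called are given with the receptor counts below. The part of these marker shifts in the receptor results was not tested. The summed levels of endothelial (0.688 to 1.71 FPKM), dendritic (0.233 to 0.549), lymphoid (0.144 to 1.12) and stromal markers (0.066 to 1.04) were low. Neutrophil markers summed to 2.58 to 5.15 FPKM in replicate 1 and to 7.88 to 11.9 FPKM in replicate 2. In bulk libraries such as these, fewer cells that transcribe a gene and less RNA made per cell cannot be told apart. The median change of all genes tested was -0.20 at 20 min, -0.29 at 60 min and -0.69 at 180 min against 0 min, and the changes below are to be read relative to these shifts.

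Between 0 and 180 min the make-up of the nascent RNA from these receptor genes shifted. Cd36, Scarb1, Stab1, Lrp1 and Mrc1 fell, to between 2.09% and 13.9% of their 0 min level within a replicate. Axl rose about 4-fold, Msr1 and Marco were higher in both replicates, and Mertk fell to 10.3% and 7.26% of its 0 min level at 60 min and overlapped that level at 180 min. Of the 8 receptors tested, 6 were called at 180 min against 0 min, 5 lower and 1 higher, where 32.3% of all genes tested were called, 23.4% lower and 8.93% higher. At 60 min against 0 min 5 were called, each of them lower, where 13.9% of all genes tested were called, 8.8% lower and 5.07% higher. The F-test over the 3 comparisons with 0 min called 7 of the 8, every one but Msr1, against 24.6% of all genes. Since the receptors were chosen with earlier results of these data known, counts above the shares of all genes are no test of the set. The count at 60 min was 1 without either 0 min library, 2 without replicate 2 at 60 min and 3 without replicate 1 at 60 min. After median-ratio scaling it was 3, with Cd36 (adjusted p = 0.0873) and Mertk no longer called. With the replicate block 8 of 8 were called at 60 min, 2 higher and 6 lower (39.6% of all genes, 11.7% higher and 27.9% lower), 7 at 180 min, 2 higher and 5 lower (65.8% of all genes, 14.2% higher and 51.6% lower), and 8 by the F-test (66.1% of all genes).

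**Figure D1:**
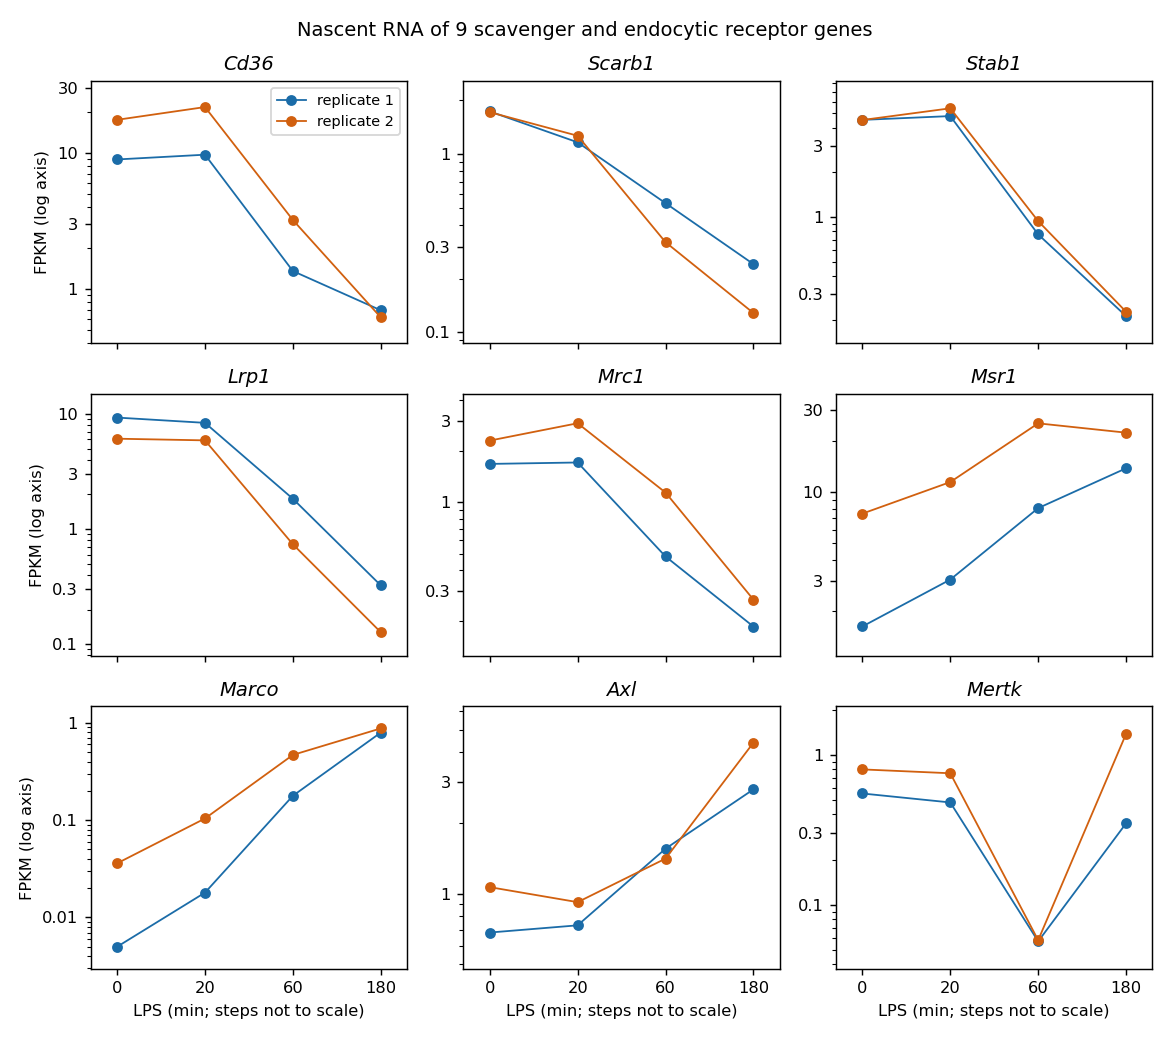
Nascent RNA level (FPKM, log axis, each panel with its own range) of the 9 receptor genes against time in LPS (min, steps not to scale), with 1 point per library and a line joining the libraries of one replicate. Cd36, Scarb1, Stab1, Lrp1 and Mrc1 are lower at 60 and 180 min than at 0 min in both replicates, Msr1 and Marco are higher, and Mertk dips at 60 min to 0.057 and 0.058 FPKM.

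Among the class B receptors, Cd36 (RefSeq NM_007643, mm9 chr5:17287508-17341714, minus strand), which takes up oxidized lipoprotein and fatty acids, was one of the most transcribed of the 9 genes at rest. It stood at 8.96 and 17.5 FPKM at 0 min, then 9.71 and 21.8 FPKM at 20 min. It then stood at 1.36 and 3.22 FPKM at 60 min, then 0.698 and 0.619 FPKM at 180 min. Neither library at 60 or 180 min overlapped those at 0 min, and the replicates, which differed 1.96-fold at the start, differed 1.13-fold at the end. The change was -2.52 ± 0.58 at 60 min (adjusted p = 0.0314) and -4.06 ± 0.58 at 180 min (adjusted p = 0.00333). At 180 min 7.79% and 3.53% of the 0 min level was left, and 34 of the 8343 genes tested had a lower change. The call at 60 min was lost without either 0 min library (adjusted p up to 0.157), without replicate 1 at 60 min or without either library at 180 min.

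Scarb1 (NM_001205082, mm9 chr5:125757457-125821464, minus strand), the class B receptor for high density lipoprotein, was transcribed at a lower level than Cd36 in all 8 libraries. Its values were 1.74 and 1.72 FPKM at 0 min, 1.16 and 1.27 FPKM at 20 min, 0.530 and 0.320 FPKM at 60 min, then 0.241 and 0.128 FPKM at 180 min. Each later group lay wholly below the earlier one, and Scarb1 is the only 1 of the 8 receptors tested whose 20 min libraries both lay below both 0 min libraries, at 67.1% and 73.7% of 0 min within a replicate. That early difference was not called (-0.48 ± 0.33, adjusted p = 0.997), and 29.6% of all genes tested had 20 min groups wholly below those at 0 min. The change was -1.83 ± 0.33 at 60 min (adjusted p = 0.0148) and -2.71 ± 0.33 at 180 min (adjusted p = 0.00198). The call at 60 min was lost without either 0 min library or without replicate 2 at 60 min, and the call at 180 min held in each of these fits.

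Stab1 (NM_138672, mm9 chr14:31952203-31981827, minus strand) had the closest replicates of the set. It stood at 4.52 and 4.51 FPKM at 0 min, 4.79 and 5.41 FPKM at 20 min, 0.762 and 0.937 FPKM at 60 min, then 0.214 and 0.229 FPKM at 180 min. At each of the last 2 times both libraries were far below every earlier one. The change was -2.29 ± 0.26 at 60 min (adjusted p = 0.00344) and -3.84 ± 0.26 at 180 min (adjusted p = 4.26e-04), and both calls held under every alternative setting tried and with each library left out in turn. It was also the only receptor called between 60 and 180 min in the unpaired fit (-1.56 ± 0.26, adjusted p = 0.0173, and up to 0.108 with a library left out, under 0.05 only without replicate 1 at 0 min or replicate 1 at 180 min), where 7.99% of all genes tested were called, 3.92% lower and 4.08% higher. After median-ratio scaling that difference was not called (adjusted p = 0.0723). The end of Stab1 overlaps 107 bases of Nt5dc2 on the opposite strand, and since the counting strand is not given in the sources used here, reads of that stretch could belong to either.

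Lrp1 (NM_008512, mm9 chr10:126975214-127058204, minus strand), which internalizes proteases, remnant lipoproteins and dying-cell debris, had the lowest estimate of the receptors tested at 180 min, within the SE of that of Cd36. Its values were 9.28 and 6.08 FPKM at 0 min, 8.35 and 5.88 FPKM at 20 min, 1.83 and 0.737 FPKM at 60 min, then 0.324 and 0.127 FPKM at 180 min. Both replicates stayed near 90.0% and 96.7% of the 0 min level for 20 min and then lost most of it by 60 min. The change was -2.58 ± 0.52 at 60 min (adjusted p = 0.0203) and -4.62 ± 0.52 at 180 min (adjusted p = 0.00154). Only 6 of the 8343 genes tested had a lower change at 180 min. Of its 0 min level, 3.49% and 2.09% was left. The call at 60 min was lost without replicate 1 (adjusted p = 0.116) or replicate 2 at 0 min and without replicate 2 at 60 min.

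Mrc1 (NM_008625, mm9 chr2:14151041-14253650, plus strand), a lectin that binds mannose-bearing glycoproteins and is a marker of alternatively activated macrophages, fell by 180 min. Its values were 1.69 and 2.31 FPKM at 0 min, 1.72 and 2.93 FPKM at 20 min, 0.481 and 1.14 FPKM at 60 min, then 0.186 and 0.268 FPKM at 180 min. Replicate 2 was the higher library at every time. The change at 60 min was -1.29 ± 0.45 (adjusted p = 0.113, and 0.00355 with the replicate block), and that at 180 min was -2.68 ± 0.45 (adjusted p = 0.00606). After quantile normalization the change at 180 min was not called (adjusted p = 0.0723).

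**Figure D2:**
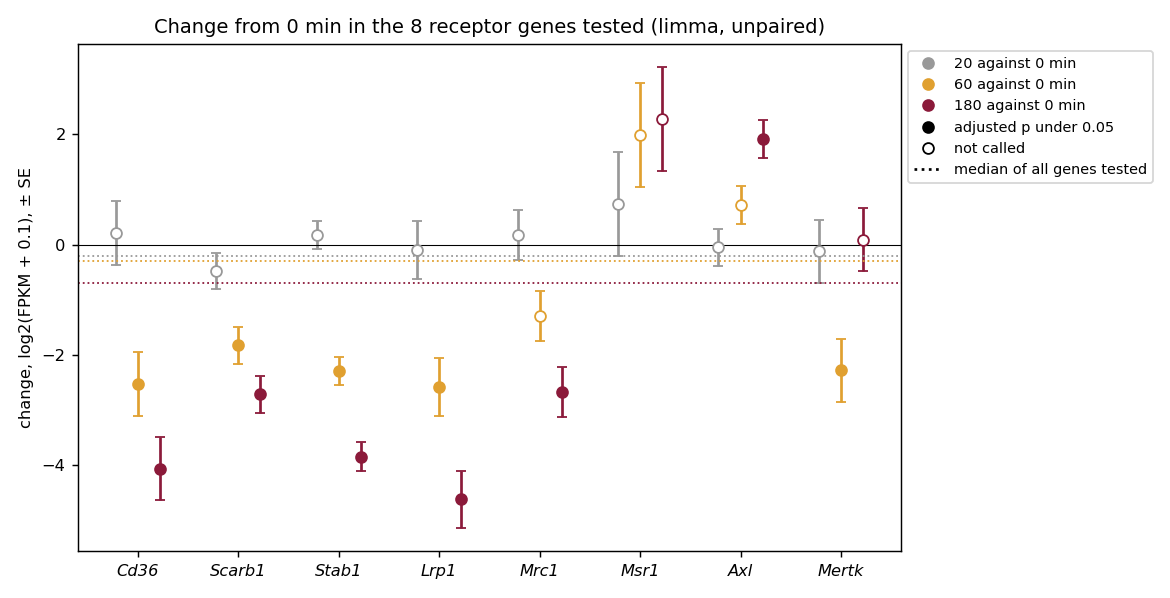
Change from 0 min on the log2(FPKM + 0.1) scale at 20, 60 and 180 min for the 8 receptors tested, as the limma estimate ± SE of the unpaired fit; filled points have an adjusted p under 0.05, and dotted lines mark the median change of all 8343 genes at each time. The points at 180 min lie between -2.68 and -4.62 for Cd36, Scarb1, Stab1, Lrp1 and Mrc1 and at 1.91 and 2.28 for Axl and Msr1.

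The class A receptors went the other way. Msr1 (NM_031195, mm9 chr8:40688806-40728032, minus strand), which binds acetylated and oxidized low density lipoprotein and bacterial surface polyanions, stood at 1.63 and 7.47 FPKM at 0 min, then 3.07 and 11.4 FPKM at 20 min. It reached 8.04 and 25.2 FPKM at 60 min, then 13.8 and 22.2 FPKM at 180 min. Within each replicate every later library was above that at 0 min, and replicate 2 was above replicate 1 at all 4 times, by 4.58-fold at 0 min and 1.62-fold at 180 min. From 0 to 180 min the level was 8.43-fold higher in replicate 1 and 2.98-fold higher in replicate 2. Its SE was the widest of the receptors tested, and the unpaired fit did not call it at 60 min (1.99 ± 0.94, adjusted p = 0.223) or at 180 min (2.28 ± 0.94, adjusted p = 0.103). The paired fit called both, with an adjusted p of 0.00154 and 3.91e-04. Groups that were wholly higher than at 0 min, as those of Msr1 were, occurred in 17.2% of all genes tested at 60 min and in 16.1% at 180 min. Replicate 2 was also the one with the higher neutrophil marker sum, and the part of this in the result was not tested.

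Marco (NM_010766, mm9 chr1:122371115-122401661, minus strand), which binds bacteria and unopsonized particles, was close to silent at rest. Its values were 0.005 and 0.036 FPKM at 0 min, 0.018 and 0.104 FPKM at 20 min, 0.178 and 0.468 FPKM at 60 min, then 0.794 and 0.876 FPKM at 180 min. The levels at 0 min stood for about 9 and 10 reads, and those at 180 min for about 1076 and 213 reads. Scaled by depth, these reads gave a rise of 165-fold in replicate 1 (95% interval 86.5 to 362) and 24.5-fold in replicate 2 (95% interval 13.1 to 51.9). These intervals are exact binomial ones and cover counting error only. In a fit with no filter on low values, which tested 19855 genes, the change was 1.73 ± 0.44 at 60 min (adjusted p = 0.0632) and 2.97 ± 0.44 at 180 min (adjusted p = 0.00852). That fit called 2.45% of its genes higher at 60 min and 5.05% at 180 min. Since Marco failed the filter through its low values at the early times, it stands outside every count of receptors called above.

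The 2 TAM kinases were transcribed at similar levels at rest and parted at 60 min. Axl (NM_009465, mm9 chr7:26541519-26573752, minus strand) stood at 0.683 and 1.07 FPKM at 0 min, 0.733 and 0.920 FPKM at 20 min, 1.55 and 1.41 FPKM at 60 min, then 2.78 and 4.39 FPKM at 180 min. Both libraries at 60 min were above all of the earlier ones, and both at 180 min were higher again. The fold from 0 to 180 min was 4.07 in replicate 1 and 4.12 in replicate 2. The change was 0.73 ± 0.34 at 60 min (adjusted p = 0.224, and 0.0442 with the replicate block) and 1.91 ± 0.34 at 180 min (adjusted p = 0.00737). Without replicate 1 at 0 min the change at 180 min was 1.63 and not called (adjusted p = 0.0551).

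Mertk (NM_008587, mm9 chr2:128524733-128627924, plus strand), the TAM kinase most tied to the uptake of dying cells, was lower at 60 min than at any other time. Its values were 0.552 and 0.799 FPKM at 0 min, 0.481 and 0.753 FPKM at 20 min, 0.057 and 0.058 FPKM at 60 min, then 0.349 and 1.38 FPKM at 180 min. The libraries at 60 min held about 287 and 67 reads of the gene, and the 2 replicates agreed there to within 1.02-fold. At 180 min they lay 3.95-fold apart, replicate 1 below and replicate 2 above its own 0 min level. The change was -2.28 ± 0.57 at 60 min (adjusted p = 0.0422), a call that among the 8 fits with a library left out held only in the 2 without a 180 min library (adjusted p up to 0.178 in the others) and was lost after median-ratio scaling (adjusted p = 0.122), quantile normalization, a pseudocount of 1 or with no filter. The change from 60 to 180 min was 2.37 ± 0.57 (adjusted p = 0.0527, and 0.00218 with the replicate block), 6.12-fold in replicate 1 and 23.8-fold in replicate 2. Without its 180 min libraries the mean of Mertk would miss the filter on low values. Against 0 min the 180 min groups overlapped (0.09 ± 0.57, adjusted p = 0.912). Of all genes tested, 0.647% were called lower at 60 min and then called higher from 60 to 180 min in the unpaired fit, and 3.31% in the paired fit, where Mertk is one of them. Since Mertk passed the filter only through its 180 min libraries, its place among them supports nothing about that pattern.

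The ratio of Axl to Mertk, both measured per length, was 1.24 and 1.33 at 0 min and 1.52 and 1.22 at 20 min. It was 27.3 and 24.3 at 60 min, and 7.97 and 3.19 at 180 min. Both replicates thus showed a similar level of the 2 kinases before LPS and at 20 min, and a higher level of Axl than of Mertk at the later times. The ratio peaked at 60 min, when Mertk was at 0.057 and 0.058 FPKM. Axl itself stood at 1.55 and 1.41 FPKM at 60 min and was higher, at 2.78 and 4.39 FPKM, at 180 min. Tyro3, the third TAM kinase, was at or below 0.023 FPKM in every library. The shared ligand Gas6 stood at 2.50 and 2.34 FPKM at 0 min, then 0.119 and 0.060 FPKM at 180 min (-3.75 ± 0.30, adjusted p = 6.80e-04). Adam17, the protease that sheds Mertk from the cell surface, rose from 2.62 and 2.50 FPKM to 7.42 and 6.81 FPKM over the same time (1.44 ± 0.32, adjusted p = 0.0153). The start regions of the 2 kinases are shown because one gene rose by 180 min and the other fell at 60 min. They are the 300 bases from 250 before to 50 after the RefSeq start on GRCm38.p6, Axl at chr7:25788684-25788983 on the minus strand and Mertk at chr2:128698665-128698964 on the plus strand, 5′ to 3′. No capitals appear in them because none of the 5 motifs searched below had a match.
Axl: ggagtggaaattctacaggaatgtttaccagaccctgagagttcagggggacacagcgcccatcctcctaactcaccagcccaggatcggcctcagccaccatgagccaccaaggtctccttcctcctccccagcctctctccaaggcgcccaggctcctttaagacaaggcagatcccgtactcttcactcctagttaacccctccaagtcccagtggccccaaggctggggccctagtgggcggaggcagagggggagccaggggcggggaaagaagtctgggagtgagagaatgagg
Mertk: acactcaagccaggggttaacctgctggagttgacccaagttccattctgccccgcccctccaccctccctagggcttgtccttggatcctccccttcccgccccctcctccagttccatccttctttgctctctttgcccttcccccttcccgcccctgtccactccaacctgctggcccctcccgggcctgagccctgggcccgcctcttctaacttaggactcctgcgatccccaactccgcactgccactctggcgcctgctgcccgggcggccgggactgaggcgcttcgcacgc
The Axl window had 60.3% G and C and 6 CpG dinucleotides, and the Mertk window 66.0% and 14, beside medians of 52.7% and 7 over the 32851 windows of this table.

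Summed over the 9 genes, nascent RNA was 29.1 and 41.5 FPKM at 0 min, 30.04 and 50.4 at 20 min, 14.8 and 33.5 at 60 min and 19.3 and 30.3 at 180 min. At 0 min Lrp1 (31.9%) led this sum in replicate 1 and Cd36 (42.2%) in replicate 2, while Msr1 gave 5.61% and 18.0%. At 60 min Msr1 gave 54.4% and 75.3% of the sum, and at 180 min 71.1% and 73.5%. The ratio of Msr1 to Cd36 was 0.182 and 0.426 at 0 min, 0.316 and 0.525 at 20 min, 5.93 and 7.84 at 60 min and 19.7 and 35.9 at 180 min. It was below 1 in all 4 libraries of the first 2 times and above 1 in all 4 of the last 2.

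**Figure D3:**
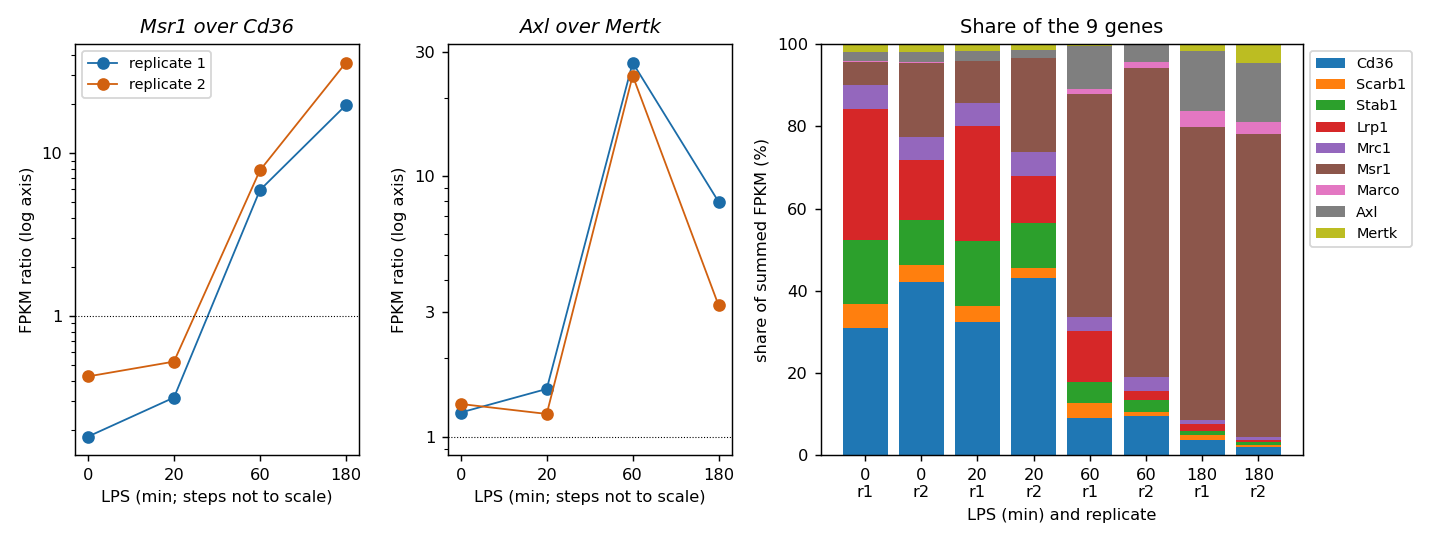
FPKM ratio of Msr1 to Cd36 and of Axl to Mertk (log axes, 1 point per library, dotted line at 1) against time in LPS, and the share of each gene in the summed FPKM of the 9 receptors (percent) in each library (r1 and r2, replicates 1 and 2). The ratio of Msr1 to Cd36 goes from 0.182 and 0.426 at 0 min to 19.7 and 35.9 at 180 min, and that of Axl to Mertk peaks at 27.3 and 24.3 at 60 min.

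At 20 min against 0 min none of the 8 receptors tested was called. In the unpaired limma fit 0.108% of all genes tested were called at that time, each of them higher, and no receptor passed 0.05 unadjusted. With the replicate block none of the 8 was called either (2.98% of all genes tested, 2.3% higher and 0.683% lower), and Msr1 alone passed 0.05 unadjusted (0.74 on the log2 scale). The voom fit on the recovered reads called none and had none under 0.05 unadjusted. The changes ran from -0.48 for Scarb1 to 0.74 for Msr1.

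Lower calls appeared between 20 and 60 min. FPKM is over the whole gene span, which runs from 29.6 kb (Stab1) to 103 kb (Mertk) in these receptors. The part of gene length in this timing was not tested. From 20 to 60 min Cd36 (-2.74 ± 0.58, adjusted p = 0.0446), Lrp1 (-2.48 ± 0.52, adjusted p = 0.0431) and Stab1 (-2.46 ± 0.26, adjusted p = 0.00954) were called lower, 3 of the 8, against 5.74% of all genes tested (2.28% higher and 3.46% lower). The call of Cd36 was lost in every fit with a library left out (adjusted p 0.0606 to 0.269), and so was that of Lrp1 (0.055 to 0.227). That of Stab1 was lost without either 20 min library or without replicate 2 at 60 min (adjusted p up to 0.106). The paired fit called 7, 1 higher and 6 lower (23.9% of all genes, 9.29% higher and 14.6% lower), adding Mertk (-2.16, adjusted p = 0.00406), Scarb1 (-1.35, adjusted p = 0.00661), Mrc1 (-1.47, adjusted p = 0.00312) and, as the 1 higher, Msr1 (1.25, adjusted p = 0.0236). From 60 to 180 min the paired fit also called 7, 2 higher and 5 lower (37.4% of all genes, 10.5% higher and 26.9% lower). Beside Stab1 and Mertk these were Axl (1.19, adjusted p = 0.00708), Cd36 (-1.54, adjusted p = 0.00772), Lrp1 (-2.03, adjusted p = 4.20e-04), Mrc1 (-1.39, adjusted p = 0.00339) and Scarb1 (-0.88, adjusted p = 0.0310). Mertk, among the 2 higher, passed the filter on low values only through its 180 min libraries, so its place in that count supports nothing about the set. Msr1 did not pass either fit there (0.29, adjusted p = 0.873 unpaired). In replicate 2 it stood at 88.2% of its 60 min level and in replicate 1 at 171%.

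The start regions of 7 of the 9 receptors were in the RefSeq table of GRCm38.p6 promoters, and were searched on both strands for the letters of 5 motifs. The NF-kB letters GGAANNNCC were found in 2 of the 7, Marco and Mrc1, and in 18.5% of the 32851 windows of 300 bases in the table. The Nrf2 letters TGACNNNGC were found in 1, Lrp1, and in 12.4% of all windows. The letters of AP-1 (TGANTCA, 7.81% of all windows), PU.1 (GAGGAAGT, 3.2%) and the interferon response (GAAANNGAA, 8.56%) were found in none of the 7. No 2 of the motifs matched at overlapping bases. The windows of Marco, which was higher after LPS, and Mrc1, which fell, are shown with the NF-kB letters in capitals, as they read on the gene's strand. They lie at chr1:120504975-120505274 on the minus strand and chr2:14229164-14229463 on the plus strand.
Marco: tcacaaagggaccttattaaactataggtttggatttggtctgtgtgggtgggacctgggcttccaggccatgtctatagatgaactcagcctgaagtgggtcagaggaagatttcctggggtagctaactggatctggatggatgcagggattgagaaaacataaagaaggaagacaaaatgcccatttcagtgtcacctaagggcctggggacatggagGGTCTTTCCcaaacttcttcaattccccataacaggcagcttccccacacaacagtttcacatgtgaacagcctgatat
Mrc1: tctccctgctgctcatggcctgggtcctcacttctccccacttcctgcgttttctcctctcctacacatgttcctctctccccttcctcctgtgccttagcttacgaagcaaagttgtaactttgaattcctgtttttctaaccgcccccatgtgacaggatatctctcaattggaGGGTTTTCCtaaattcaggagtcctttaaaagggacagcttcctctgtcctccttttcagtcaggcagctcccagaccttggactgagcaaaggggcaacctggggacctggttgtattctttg
The match GGTCTTTCC begins 29 bases before the Marco start and GGGTTTTCC begins 74 bases before the Mrc1 start, and both are on the strand opposite to the gene. Marco's window held 47.3% G and C with 0 CpG, and that of Mrc1 50.3% with 3. The same letters thus stood before one receptor gene that was higher and one that fell.

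Other genes of receptor uptake were taken from 7 lists and are given at 180 min against 0 min. Among the genes named from them, leaving out 1 of the 0 or 180 min libraries ended the call of Ager, Cxcl16, Cd68, Olr1, Lrp12, C1qa, Itgb5, Elmo2, Adam17, Elmo1, Pltp and Ap2a2, with an adjusted p of up to 0.159. Median-ratio scaling ended those of C1qa and Elmo1. Of 14 other scavenger receptors 6 were tested, 2 called higher and 2 lower, with a median change of 0.20 beside -0.69 for all genes tested. The shares of all genes tested were 8.93% higher and 23.4% lower. Cxcl16, a transmembrane chemokine that also binds oxidized lipoprotein, went from 3.58 and 1.76 FPKM to 12.8 and 9.57 FPKM (2.09 ± 0.50, adjusted p = 0.0208), with its highest libraries at 60 min (24.4 and 16.5 FPKM). Olr1, the lectin-like receptor for oxidized lipoprotein, went from 0.010 and 0.040 FPKM to 1.57 and 2.94 FPKM at 60 min, then 0.379 and 0.201 FPKM at 180 min (1.61 ± 0.44, adjusted p = 0.0312). It passed the filter on low values only through its 60 min libraries, so its place among the genes called higher supports nothing about the list. Cd68, a scavenger receptor of late endosomes and also one of the macrophage markers, fell from 35.1 and 23.2 FPKM to 7.61 and 5.79 FPKM (-2.09 ± 0.41, adjusted p = 0.00996). Ager, the receptor for glycated proteins, fell from 1.42 and 0.883 FPKM to 0.277 and 0.081 FPKM (-2.23 ± 0.43, adjusted p = 0.00971), and its mean would miss the filter without the 0 min libraries. Scarf1, a receptor for modified lipoprotein, had 1.20 and 0.811 FPKM at 0 min, then 2.09 and 1.48 FPKM at 180 min and was not called (0.78 ± 0.45, adjusted p = 0.218, and 0.0210 with the replicate block).

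Lipid uptake, storage and efflux had 17 of 19 genes tested, and 8 were called lower and 1 higher, where 23.4% of all genes tested were called lower and 8.93% higher. The median change was -1.83 beside -0.69 for all genes. With the replicate block 12 were lower and 1 higher, beside 51.6% and 14.2% of all genes tested. After median-ratio scaling 5 were lower and 1 higher, beside 12.6% and 13.5% of all genes tested. Pparg, the nuclear receptor known to drive Cd36 transcription, fell from 3.25 and 4.25 FPKM to 0.208 and 0.138 FPKM (-3.82 ± 0.37, adjusted p = 0.00106). Nceh1, a cholesteryl ester hydrolase, fell from 8.77 and 7.19 FPKM to 0.491 and 0.698 FPKM (-3.55 ± 0.30, adjusted p = 7.12e-04). Soat1, which esterifies cholesterol for storage, fell from 4.91 and 4.22 FPKM to 0.740 and 0.435 FPKM (-2.79 ± 0.32, adjusted p = 0.00172). Pltp, the phospholipid transfer protein, fell from 13.9 and 4.51 FPKM to 0.946 and 0.276 FPKM (-3.68 ± 0.93, adjusted p = 0.0242). The fatty acid carrier Fabp4 stood at 4.46 and 2.96 FPKM at 0 min, 20.2 and 24.2 FPKM at 20 min, then 1.47 and 1.31 FPKM at 180 min, and was not called at 180 min (-1.33 ± 0.53, adjusted p = 0.0944, and 0.0236 with the replicate block).

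Of 17 genes of apoptotic cell recognition 12 were tested, 2 called higher and 3 lower (3 higher and 8 lower with the replicate block), with a median of -1.29. For all genes tested the shares were 8.93% higher and 23.4% lower (14.2% and 51.6% with the block). Thbs1, among the 3 higher with the block, would miss the filter without the 60 min or the 180 min libraries. Mfge8, among the 8 lower with the block, would miss it without the 0 min or the 20 min libraries. Beside Gas6, C1qa, a chain of the complement opsonin C1q, was lower at 180 min (0.216 and 0.343 FPKM from 1.75 and 0.931 FPKM, -1.89 ± 0.50, adjusted p = 0.0288) after higher values of 4.32 and 2.09 FPKM at 20 min. The 2 integrin chains named here moved in opposite directions. Itgav, the alpha chain of a vitronectin receptor that engages opsonized dying cells, went from 2.34 and 2.79 FPKM to 11.1 and 8.72 FPKM (1.90 ± 0.32, adjusted p = 0.00572). Itgb5, one of its beta partners, fell from 1.10 and 0.887 FPKM to 0.219 and 0.236 FPKM (-1.73 ± 0.31, adjusted p = 0.00722), and would miss the filter without the 0 min or the 20 min libraries. Anxa1, which binds phosphatidylserine, was not called (-0.51 ± 0.34, adjusted p = 0.271).

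Engulfment signalling and receptor shedding had 13 of 15 genes tested, 2 called higher, Crkl and Adam17, and 3 lower (4 and 6 with the replicate block), with a median of -0.29. Among all genes tested 8.93% were called higher and 23.4% lower (14.2% and 51.6% with the block). The 3 lower genes of this list were parts of a guanine nucleotide exchange machinery for Rac: Elmo2 (-2.32 ± 0.44, adjusted p = 0.00865), Dock2 (-2.21 ± 0.32, adjusted p = 0.00349) and Elmo1 (-1.17 ± 0.27, adjusted p = 0.0185). Rhog, a small GTPase that acts upstream of Elmo, stood at 7.76 and 6.27 FPKM at 0 min, then 18.9 and 13.4 FPKM at 180 min and just missed the threshold (1.18 ± 0.39, adjusted p = 0.0569, and 0.00123 with the replicate block).

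In the family of Lrp1, 6 of 17 other genes were tested, with a median of -0.88. Of these, 2 were called lower (4 with the replicate block), beside 23.4% of all genes tested (51.6% with the block). Lrp12, one of the 2, went from 2.40 and 2.08 FPKM to 0.791 and 0.342 FPKM (-1.89 ± 0.37, adjusted p = 0.00996). Of 11 other mannose receptor relatives and endocytic lectins only 2 were tested and limma called neither, and 1 was lower at 0.05 unadjusted. The more highly transcribed of the pair, the mannose 6-phosphate receptor M6pr, had 2.26 and 3.31 FPKM at 0 min, then 3.25 and 4.29 FPKM at 180 min (0.43 ± 0.34, adjusted p = 0.345). The paired fit called 1 of the 2 lower, beside 51.6% of all genes tested, and voom called neither.

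A list of 20 genes covered clathrin endocytosis and the early endosome, and also held Cav1 of caveolae. Of these 19 were tested, with 1 called higher, Cav1, and 2 lower (3 and 6 with the replicate block). The median was -0.49, beside 32.3% called and a median of -0.69 over all genes tested. With the block 14.2% of all genes tested were called higher and 51.6% lower. Hip1, a clathrin and actin linker, fell from 2.25 and 2.66 FPKM to 0.048 and 0.031 FPKM (-4.19 ± 0.27, adjusted p = 4.26e-04). Ap2a2, a subunit of the clathrin adaptor AP-2, fell from 1.73 and 1.61 FPKM to 0.552 and 0.309 FPKM (-1.78 ± 0.40, adjusted p = 0.0158). Cav1, the coat protein of caveolae, went from 0.047 and 0.087 FPKM to 3.57 and 6.09 FPKM at 60 min, then 1.17 and 0.811 FPKM at 180 min (2.70 ± 0.38, adjusted p = 0.00322). Like Olr1, Cav1 passed the filter only through its 60 min libraries. Its place as the 1 gene of this list called higher supports nothing about the list. The endocytic adaptor Dab2 stood at 4.59 and 10.6 FPKM at 0 min, then 2.28 and 2.26 FPKM at 180 min (-1.58 ± 0.62, adjusted p = 0.0915, and 0.00277 with the replicate block).

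**Figure D4:**
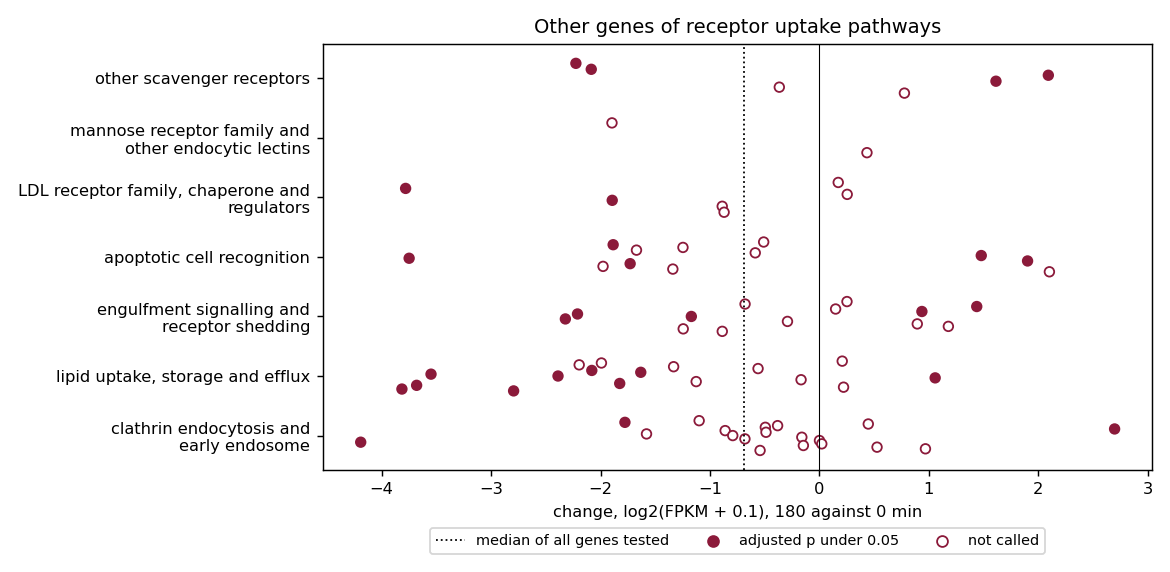
Change at 180 min against 0 min on the log2(FPKM + 0.1) scale for the tested genes of 7 uptake lists outside the 9 receptors, 1 point per gene, filled where the adjusted p of the unpaired fit is under 0.05. The dotted line marks the median of all genes tested, -0.69, and the lipid list has 8 filled points below 0 and 1 above.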

How the data were processed

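The authors deposited 1 FPKM value per gene and library with gene positions on mm9. Per the submitters' processing notes, CASAVA 1.7, Bowtie2 2.0.5 and HOMER 4.6 and 4.7 were used, with no role or order. What is not given in the sources used here is strand handling, the denominator of the FPKM and whether starts count from 0 or 1. For 99.4% of genes, length equals end minus start, so FPKM is over the whole gene span. A further 8 columns matched no sample label and were not used.

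Depth was recovered from FPKM steps in genes of up to 4000 bases: 97.9 to 100% of the values checked were whole within 0.1 read, against 20% by chance. FPKM is rounded to 3 decimals, so recovered reads of long genes are approximate.

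Limma 3.58.1 in R 4.3.3 fitted log2(FPKM + 0.1) of the 4 groups of 2 with a variance trend and two-sided moderated tests, for genes whose mean reached 0.5 FPKM, and Benjamini-Hochberg adjustment ran over all 8343 genes in each comparison. The same fit with a replicate block is the paired fit. Pairing follows from the data: replicate 1 minus replicate 2 correlated at 0.595 to 0.882 between all 6 pairs of groups. The labels call the replicates biological and do not say which libraries share animals, so p-values measure the spread between these libraries. Alternatives were other pseudocounts, filters, scalings and variance trends, only the compared groups, voom on recovered reads, and each library left out. The fits and the depth recovery were tested on simulated data.

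Named genes are the 9 receptors, the LPS check genes and, per list, up to 4 genes called at 180 min with the largest change and the 1 not called with the highest mean FPKM. Crkl, Tyro3, Thbs1 and Mfge8 were named after their values were seen, as were Nt5dc2 and the neighbouring genes. Some genes that this rule names are not reported here. The receptors and lists were chosen with earlier results of these data known.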

Additional observations from a re-analysis of the deposited data

How the results depend on the processing

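The counts of receptors called at 20 min and at 180 min stayed within 1.5 times the unpaired count under every alternative tried (0 at 20 min, 5 to 7 at 180 min). For 60 against 0 min, where 5 of 8 were called, the count was 3 at a filter of 1 FPKM, 3 after median-ratio scaling, 2 with only the compared groups, 8 with the replicate block and 8 with the block and median-ratio scaling, and it was 1 to 4 with a library left out (1 without either 0 min library, 3 without replicate 1 at 60 min, 2 without replicate 2 at 60 min). For 60 against 20 min, where 3 were called, it was 1 at a pseudocount of 0.01, 1 with no filter, 0 with only the compared groups, 6 with voom, 7 with the replicate block, 8 with the block and scaling, and 0 to 2 with a library left out (0 without either 20 min library or replicate 2 at 60 min, 1 without either 0 min library or replicate 1 at 60 min). For 180 against 60 min, where 1 was called, it was 2 at a pseudocount of 0.01, 0 at a pseudocount of 1, 0 after quantile normalization, 0 with only the compared groups, 4 with voom, 7 with the replicate block, 6 with the block and scaling, and 0 to 2 with a library left out. The cause of these differences was not tested, beyond the fewer samples or genes that some settings hold. Over all genes, the split at 180 min was 745 higher and 1951 lower as deposited and 1124 higher and 1052 lower after median-ratio scaling, and at 60 min 423 and 734 became 561 and 553, with the median change of all genes near 0.

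Of the 25 pathway and LPS check genes named that were called at 180 min, 25 kept their direction in every fit, 12 stayed called with each library left out and 20 under every other setting. No called receptor change reversed under any of these settings. Changes that were not called turned sign at 20 min for Lrp1 (0.13 after median-ratio scaling, with or without the replicate block), Mertk (0.0752 after that scaling with or without the block, 0.0858 after quantile normalization) and Axl (0.15 after that scaling with or without the block, 0.26 after quantile normalization, 0.0236 with voom), and at 180 min for Mertk (-0.16 with voom). With a library left out, the ranges that crossed 0 were at 20 min -0.37 to 0.79 for Cd36, -0.32 to 1.80 for Msr1, -0.19 to 0.54 for Mrc1, -0.40 to 0.20 for Lrp1, -0.40 to 0.16 for Mertk and -0.34 to 0.24 for Axl, at 180 against 60 min -0.53 to 1.11 for Msr1, and at 180 against 0 min -0.77 to 0.95 for Mertk.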

Other observations

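Genes next to the receptors are given by their distance on mm9. Stat6, 21838 bases from Lrp1, stood at 6.51 and 4.82 FPKM at 0 min, 7.05 and 4.78 FPKM at 60 min, then 1.81 and 0.635 FPKM at 180 min, so that it was at its starting level at 60 min (0.05 ± 0.53, adjusted p = 0.971), when Lrp1 had already fallen, and lower at 180 min (-2.27 ± 0.53, adjusted p = 0.0186). Nisch, 2287 bases from Stab1, fell less far than Stab1 in both replicates, from 4.24 and 3.79 FPKM to 1.86 and 0.927 FPKM (-1.54 ± 0.38, adjusted p = 0.0239). Hnrnpul1, 1780 bases from Axl, was lower at 180 min (-0.96 ± 0.28, adjusted p = 0.0383) while Axl was higher. Neither tested neighbour of Mertk was called at 60 min: Tmem87b had -1.31 ± 0.40 (adjusted p = 0.0746, and 0.00178 with the replicate block) and Anapc1 -0.46 ± 0.28 (adjusted p = 0.345). Gnat3, 126674 bases from Cd36 and below the filter, stood at 0.218 and 0.604 FPKM at 0 min, then 0.019 and 0.084 FPKM at 180 min.

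The genes most like each receptor in their log2(FPKM + 0.1) over the 8 libraries are given by Pearson's r, as a description of libraries that share the LPS time course and the replicate difference in depth. Stab1 was most like Arhgap18 (0.996) and Hip1 (0.994), and Cd36 was most like Qk (0.995) and Gsk3b (0.992). Lrp1 was most like Nol4l (0.998) and Dgkz (0.997), Scarb1 most like Zfp266 (0.998) and Fam105a (0.997), and Mrc1 most like Tmx4 and Lair1 (0.989 each). Axl was most like Ccnd2 (0.996) and Man2a1 (0.991). Mertk was most like Zcchc11 (0.978) and Tle4 (0.977), and Msr1 most like Diap2 (0.961) and Ednrb (0.954). The number of genes above 0.9 was 1151 for Scarb1, 960 for Lrp1, 701 for Stab1 and 601 for Cd36. It was 400 for Mrc1, 246 for Axl, 57 for Mertk and 36 for Msr1. Among the receptors themselves r was 0.868 to 0.984 between the 5 that fell, and -0.958 to -0.873 between Axl and each of these. The 5 are grouped because they fell in these same libraries, so these values of r are no evidence of a link between them.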
